A study of Mus musculus with 2 samples.

Results

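Transcripts of the replication-dependent histone genes were examined in donor T cells from recipient spleens at days +7 and +14 after allogeneic hematopoietic cell transplantation (allo-HCT). The members were all genes whose symbol in the deposited gene list begins with Hist1h, Hist2h, Hist3h or Hist4h. They number 67 of the 32285 genes listed, of which 6 encode the linker histone H1, 18 encode H2a, 18 encode H2b, 12 encode H3 and 13 encode H4. The rule reads symbols only, but it was set with earlier results of these data known.

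Irradiated BALB/c recipients received naive splenic T cells from fully allogeneic C57BL/6 donors, 0.2 × 10⁶ per mouse according to the labels, with T cell-depleted bone marrow. A figure legend of the study gives a higher number of donor T cells for this experiment, and the conflict was not settled here. The methods describe mice of 6 to 12 weeks of age, and the labels give no genotype for the donors. By flow sorting, CD45+, H2kb+, H2kd- and TCRβ+ donor cells were taken from the spleen, cells of several mice were pooled before capture, and 1 single-cell RNA-Seq (scRNA-seq) library was made per day on the 10X Genomics platform. Both library names include PBS. The labels of both libraries describe a sort on day +7, while the titles give day 7 and day 14, which were used here.

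Cells copy their chromatin once per division and must supply new histone proteins while DNA is being replicated. The core histones H2a, H2b, H3 and H4 form the nucleosome, and H1 binds the DNA between nucleosomes. The replication-dependent genes lie in clusters, mostly lack introns, and are transcribed mainly in S phase. Their mRNAs usually end after a stem-loop that is bound by the stem-loop binding protein Slbp in place of a poly(A) tail, so poly(A) capture sees only a part of them. Histone variants such as H2afz and H3f3b are made from polyadenylated mRNAs throughout the cell cycle.

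The stem-loop sequences show how alike the ends of these mRNAs are and where the classes differ. The motif, GG with any 2 bases, CTTTT, any base, AG, any 2 bases and CC in this order, searched on the transcribed strand of annotated 3′ untranslated regions (GENCODE M21, GRCm38), was present in 44 of the 67 members. A wider search over whole transcripts, coding sequence included, found it in 0.355% of 21951 protein-coding genes, or 78 genes. Of these, 34 were not members, among them H2afx, a variant whose mRNA is known to exist in both a stem-loop and a polyadenylated form. The searches are unlike, so the member count and this share are not directly comparable. The sequences of 8 members with many UMIs are given 5′ to 3′, with the stem-loop motif in capitals and up to 5 flanking bases on each side. Their positions were chr13:23621777-23621802 (Hist1h1e, minus strand), chr13:23570663-23570688 (Hist1h2ae, minus strand), chr13:22043633-22043658 (Hist1h2bj, plus strand), chr3:96220413-96220438 (Hist2h2ac, minus strand), chr13:23561898-23561923 (Hist1h3e, minus strand), chr13:23581945-23581970 (Hist1h4d, plus strand), chr13:23531453-23531478 (Hist1h4h, plus strand) and chr13:22040961-22040986 (Hist1h4i, minus strand).
Hist1h1e: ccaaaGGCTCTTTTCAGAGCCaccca
Hist1h2ae: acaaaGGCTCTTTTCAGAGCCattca
Hist1h2bj: ccaaaGGCTCTTTTCAGAGCCacgca
Hist2h2ac: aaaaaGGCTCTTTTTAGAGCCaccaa
Hist1h3e: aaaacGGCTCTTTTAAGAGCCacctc
Hist1h4d: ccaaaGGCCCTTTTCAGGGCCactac
Hist1h4h: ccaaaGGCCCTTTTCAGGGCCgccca
Hist1h4i: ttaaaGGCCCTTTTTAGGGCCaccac
The core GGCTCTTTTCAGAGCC was shared by 26 members of H1, H2a, H2b and H3. The core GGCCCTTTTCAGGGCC was present in 7 members, all of them H4 genes. The core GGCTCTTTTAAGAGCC occurred in 6 members of H1, H2b and H3, among them Hist1h3e. The other 23 members, Hist1h1b and Hist1h1a among them, had no match in their annotated 3′ end, which says only that these letters are not in that model.

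The members were transcribed from chromosome 13 (54 genes), chromosome 3 (10), chromosome 11 (2) and chromosome 6 (1), and 63 of the 67 models had 1 exon. Promoter sequences from RefSeq (GRCm38.p6, 250 bases before to 50 after the gene start) matched 62 members. The motif CCAAT was present on either strand in 85.5% of the members' promoters and in 37.9% of all 27025 promoters. It was present in all 6 H1, 18 H2a, 16 H2b and 10 H3 promoters but in 3 of 12 H4 promoters. TATAAA was present in 56.5% of members and 14.2% of all promoters. The octamer ATTTGCAT was found in 7 of 18 H2a and 6 of 16 H2b promoters, in no promoter of H1, H3 or H4, and in 1.75% of all promoters. These searches covered both strands, and a match is a description of the sequence, not a bound site. Windows of neighboring H2a and H2b genes on opposite strands can overlap, so a match can be counted in both classes. The windows of Hist1h2bj and Hist1h2ag overlap in this way. Of the members described next, Hist1h1b had the most UMIs and Hist1h2bj fell the most among H2b genes with enough UMIs to be compared. Their promoters, chr13:21780576-21780875 on the minus strand and chr13:22042948-22043247 on the plus strand, are shown with CCAAT, its reverse ATTGG and TATAAA in capitals.
Hist1h1b: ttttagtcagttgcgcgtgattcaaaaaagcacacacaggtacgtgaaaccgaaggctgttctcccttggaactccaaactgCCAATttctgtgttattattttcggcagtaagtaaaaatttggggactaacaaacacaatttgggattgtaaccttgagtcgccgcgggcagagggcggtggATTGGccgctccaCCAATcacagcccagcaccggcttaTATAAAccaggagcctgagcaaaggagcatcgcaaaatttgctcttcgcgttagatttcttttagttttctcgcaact
Hist1h2bj: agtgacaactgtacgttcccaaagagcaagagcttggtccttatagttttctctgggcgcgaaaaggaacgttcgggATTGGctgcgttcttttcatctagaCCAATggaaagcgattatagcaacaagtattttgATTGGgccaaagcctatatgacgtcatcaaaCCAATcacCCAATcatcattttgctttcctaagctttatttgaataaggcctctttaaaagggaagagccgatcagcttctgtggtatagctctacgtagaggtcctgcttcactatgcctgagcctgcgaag

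The libraries held 7355 barcodes and 87124828 UMIs at day +7 and 8043 barcodes and 84233811 UMIs at day +14. After the filters on detected genes and mitochondrial UMIs, 7179 and 7794 cells remained, with medians of 9210 and 8144 UMIs per cell, and 17 barcodes were present in both libraries. Members took up 0.727% of the UMIs of kept cells at day +7 and 0.346% at day +14. The doublet caller Scrublet marked 0 barcodes in each library and was therefore not used as a filter. Each day is 1 library without replicates, which allows no test. A difference between the days therefore cannot be told apart from a difference between the libraries or their capture. Brackets hold 95% intervals, exact Poisson for a level and Clopper-Pearson (exact binomial) for a share or ratio, and they cover counting error only, not the spread between mice.

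Cell cycle gates were set without any histone gene. Each cell was thinned to 4000 UMIs outside the members, and the UMIs of 39 replication genes (S list) and 44 mitotic genes (M list) were summed and ranked over the gated T cells of both libraries. Cells at rank 75 or more by the higher of the lists were called S phase or mitotic, and cells at rank 40 or less in both were called non-cycling. CD8 cells showed Cd8a or Cd8b1 without Cd4 among the thinned UMIs, and CD4 cells the opposite. Of 6811 gated T cells at day +7 and 6730 at day +14, the CD8 S phase gate held 1033 and 1513, the CD8 mitotic gate 1133 and 1276, and the CD8 non-cycling gate 1747 and 1227. The CD4 gates were small, with 45 and 56 cells in the S phase gate, 52 and 58 in the mitotic gate and 166 and 207 in the non-cycling gate. The gates are named after their lists, and cells of the mitotic gate were not shown to be in mitosis. The median thinned S list count in the CD8 S phase gate was 20 UMIs at day +7 and 21 at day +14, and 187 and 226 of its cells lay within 5 ranks of the lower limit. CD3 and TCR constant genes, which mark T cells, were at 5071 and 6717 CPM there, where CPM are counts of UMIs scaled to a total of 1000000 UMIs of the gate.

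Histone transcripts were lower in the day +14 library in CD8 T cells in S phase. All members together amounted to 11372 CPM at day +7 and to 4420 CPM at day +14, 2.57-fold less, with a log2 ratio of −1.36 [−1.37, −1.35]. The replication genes that set the gate were at 4798 and 4990 CPM (log2 ratio 0.06 [0.04, 0.07]), a likeness that the gate itself largely fixed. Replication genes held out of the gate were at 3023 and 3122 CPM (0.05 [0.03, 0.06]). Among 6816 genes at a mean of 10 CPM or more in this gate, a median log2 ratio of 0.14 was found with 1 CPM added. Scaling by the median ratio of genes would lower each CD8 S phase log2 ratio by 0.14, and the CD8 mitotic and non-cycling ratios by 0.16 and 0.18.

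The classes did not fall equally. H2a was the lowest, from 2871 to 823 CPM (log2 ratio −1.80 [−1.83, −1.78]). H2b went from 1159 to 379 CPM (−1.61 [−1.65, −1.58]), H3 from 1108 to 368 CPM (−1.59 [−1.63, −1.55]) and H4 from 1904 to 657 CPM (−1.53 [−1.56, −1.51]). H1 went from 4330 to 2193 CPM (−0.98), a fall of 1.97-fold beside 3.49-fold for H2a. The interval of H3 overlaps those of H2b and H4, so counting error alone did not tell it apart from them, whereas those of H1 and H2a overlap with no other class. Accordingly H1 made up 38.1% [37.9, 38.3] of member UMIs at day +7 and 49.6% [49.3, 49.9] at day +14, and H2a 25.2% [25.1, 25.4] and 18.6% [18.4, 18.9].

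**Figure D1:**
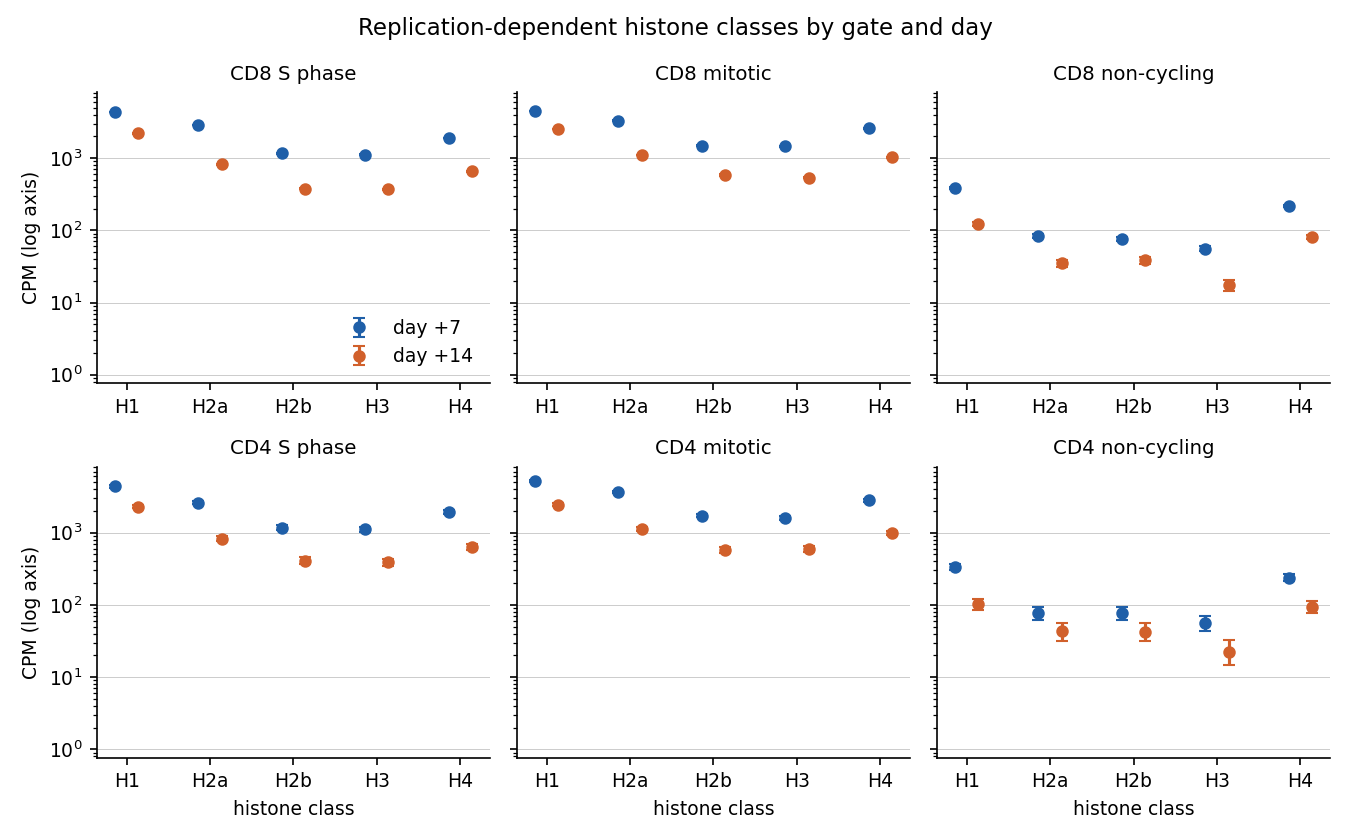
Summed CPM (log axis) of the 5 histone classes in 3 CD8 and 3 CD4 gates, in blue at day +7 and orange at day +14, with exact 95% Poisson intervals (counting error only, 1 library per day). Every class lies lower at day +14 in every gate, and non-cycling cells lie more than 10-fold below the S phase and mitotic gates for the CD8 total.

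Part of the smaller difference of H1 came from 1 gene. Hist1h1b (ENSMUSG00000058773, chr13:21779883-21780625, GRCm38, minus strand, 1 exon), an H1 gene of proliferating cells, had 41286 UMIs at day +7 and 33227 at day +14, at 2407 and 1450 CPM (log2 ratio −0.73 [−0.75, −0.71]). It made up 55.6% of H1 UMIs at day +7 and 66.1% at day +14. Without it, the H1 class had a log2 ratio of −1.37, the least reduced only beside the other classes with all their members. With the member with the most UMIs taken from each class, H4 was the least reduced (−1.31). H2a, H2b and H3 were then at −1.82, −1.48 and −1.45. Hist1h1e, the lowest of the H1 class, fell from 1167 to 416 CPM (−1.49 [−1.53, −1.45]). Its model overlaps the span of Hist1h2be on the same strand, and it shares 26.2% of its 90-base stretches with other members. Hist1h1d was at 351 and 141 CPM (−1.31) and Hist1h1c at 244 and 104 CPM (−1.23). These values are UMIs, not scaled to transcript length, so levels of different genes are not ranked as amounts of mRNA.

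Of the 67 members, 41 reached a mean of 10 CPM in CD8 S phase cells, 23 had fewer UMIs and 3 had none in either library. Of the 41, 33 were 2-fold or more lower at day +14, beside 1.31% of all genes at that level, 8 were lower by less, and none was 2-fold higher, beside 1.44%. All 41 lay below 0, with a median log2 ratio of −1.39. By class, 3 of 5 H1, 8 of 10 H2a, 9 of 12 H2b, 8 of 8 H3 and 5 of 6 H4 members were 2-fold or more lower. Outside the members, 11 of 2533 genes at 50 CPM or more lay at or under the members' median, led by Ifitm1 (297 and 3.84 CPM), Ifitm2 (207 and 3.36 CPM) and Gzma, a granzyme of cytotoxic T cells (3308 and 198 CPM).

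Among H2a genes, Hist1h2ae had the most UMIs and fell from 875 to 256 CPM (−1.77 [−1.81, −1.73]). Hist1h2ap (ENSMUSG00000094777, chr13:21833026-21833507, minus strand, 1 exon) went from 688 to 92.1 CPM, the lowest ratio of the members at 10 CPM or more (−2.90 [−2.97, −2.83]). Its transcript shares 92.4% of its 90-base stretches with other members, so reads could be divided among copies or lost, and its value is uncertain. Hist1h2ab went from 391 to 106 CPM (−1.89) and Hist2h2ac from 474 to 181 CPM (−1.39). Hist1h2ag, the least reduced of the class at 10 CPM or more, was at 18.8 and 11.9 CPM (−0.67 [−0.90, −0.43]).

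Among H2b genes, Hist1h2bj fell from 256 to 54.1 CPM (−2.24 [−2.34, −2.15]) and Hist2h2bb from 207 to 76.1 CPM (−1.45). Hist1h2bm was at 149 and 48.9 CPM (−1.61), and Hist1h2be at 135 and 51.2 CPM (−1.39), though the span of its model overlaps that of Hist1h1e on the same strand. Of the H2b members at 10 CPM or more, Hist1h2bk differed least, at 12.1 and 8.16 CPM (−0.56 [−0.86, −0.27]). H2a and H2b genes often lie head to head, and 12 such pairs were found among the members. Their partners, chosen for description after the values were seen, did not always move alike. Hist1h2ak and Hist1h2bn, 295 bases apart, had log2 ratios of −1.54 and −1.61, whereas Hist1h2ag and Hist1h2bj, 269 bases apart, had −0.67 and −2.24.

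The 8 H3 members at 10 CPM or more lay between −2.06 and −1.18. Hist1h3e fell from 405 to 111 CPM (−1.87 [−1.94, −1.80]) and Hist1h3c from 295 to 119 CPM (−1.31 [−1.38, −1.25]). Hist1h3i was at 120 and 41.8 CPM and Hist1h3f at 101 and 28.4 CPM. Hist1h3b was the lowest of them (69.4 and 16.6 CPM, −2.06) and Hist1h3a the least reduced of the 8 (58.9 and 26.1 CPM, −1.18 [−1.32, −1.03]). With 1 CPM added, Hist1h3d (25.1 and 10.95 CPM, −1.19 [−1.42, −0.97]) had the highest ratio, and the intervals of these genes overlap.

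H4 members of like level at day +7 differed widely. Hist1h4d carried most H4 UMIs, at 1486 and 489 CPM (−1.60 [−1.63, −1.57]). Hist1h4h fell from 136 to 23.9 CPM (−2.51 [−2.65, −2.38]), while Hist1h4i went from 116 to 80.6 CPM (−0.52 [−0.62, −0.43]). Hist1h4c was at 64.0 and 23.8 CPM (−1.43). The stem-loops of Hist1h4h and Hist1h4i printed above carry different cores, and the model of Hist1h4h ends 46 bases past its stem-loop whereas that of Hist1h4i runs on for 330 bases. Hist1h4d and Hist1h4c carry the core of Hist1h4h, yet their models run on for 770 and 454 bases. Whether the core or the length of the model goes with the ratio was not tested.

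**Figure D2:**
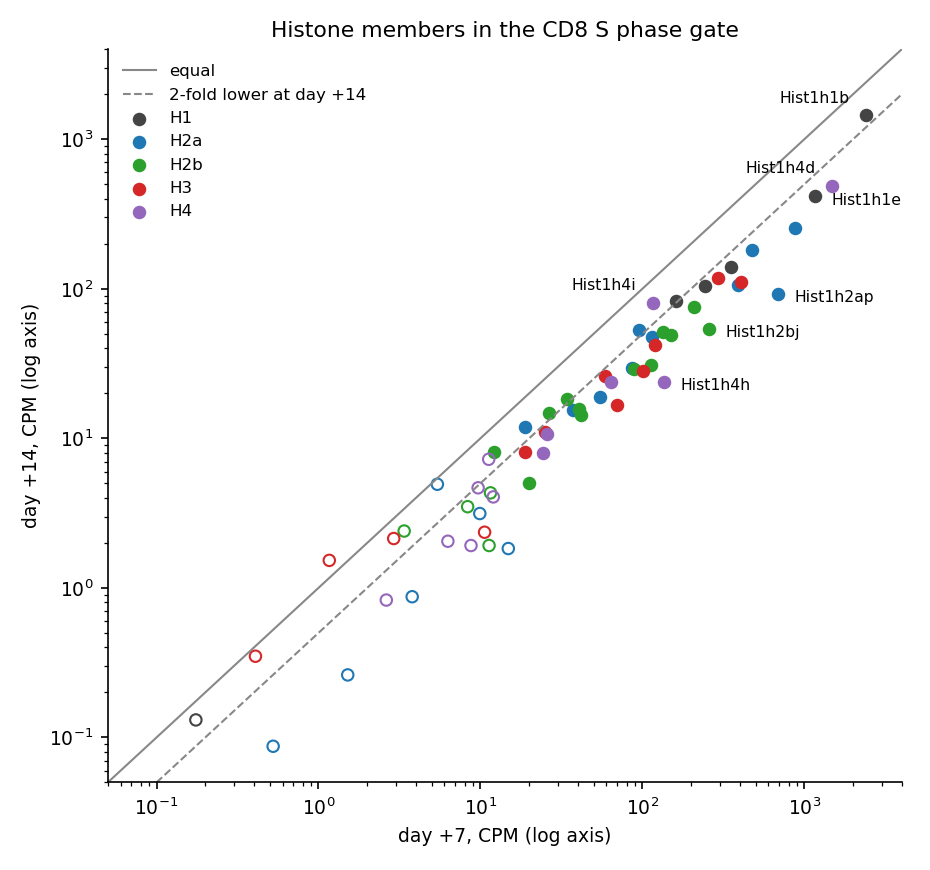
Each point is 1 member in the CD8 S phase gate, with CPM at day +7 against day +14 (both log axes), colored by class, filled at a mean of 10 CPM or more and open below. The solid line marks equal values and the dashed line a 2-fold lower value at day +14. Of the filled points, Hist1h2ap, Hist1h2bj and Hist1h4h lie farthest under the dashed line, while Hist1h1b and Hist1h4i lie between the lines. Some open points lie as far under it or farther. Members with 0 UMIs on either day are not drawn.

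The members were next split by what their gene models hold, a split chosen after the values were seen. The 26 members whose model ends within 200 bases after the stem-loop had a log2 ratio of −1.83 for their summed UMIs in CD8 S phase cells. The 18 members whose model runs more than 200 bases past it had −1.48, and the 23 with no stem-loop in the model had −0.88. Without Hist1h1b, the last group had −1.31. Of the members, 40 share under 50% of their 90-base stretches with other members, and sharing with genes outside the members was not examined. The 29 of these 40 at 10 CPM or more had a median of −1.39, beside −1.53 for the 12 that share more. Summed over all members, the ratios were −1.26 for those that share less and −1.94 for those that share more. Single genes weigh heavily in these sums at day +7. Hist1h1b held 41286 of the 158284 UMIs of the first, and Hist1h2ap 11798 of the 36781 of the second. Whether sharing goes with the ratio was not tested. Values of the 27 members that share 50% or more are uncertain one by one.

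CD8 cells in the mitotic gate showed the same direction. Members, higher here than in the S phase gate on both days, went from 13332 to 5770 CPM (log2 ratio −1.21 [−1.22, −1.20]). H2a was again the lowest class (3301 and 1104 CPM, −1.58) and H1 the least reduced (4526 and 2526 CPM, −0.84). H2b, H3 and H4 had ratios of −1.35, −1.44 and −1.33. Of 44 members at 10 CPM or more, 31 were 2-fold or more lower, beside 1.46% of all genes, and none was 2-fold higher, beside 1.96%. Held-out mitotic genes, led in UMIs by Hmgb2, Tubb4b and Top2a, were at 11961 and 11891 CPM (−0.01 [−0.02, 0.00]).

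In non-cycling CD8 cells members went from 815 to 294 CPM (−1.47 [−1.54, −1.41]). Here the order of the classes was different. H3 (55.4 and 17.4 CPM, −1.67 [−1.95, −1.41]) and H1 (381 and 122 CPM, −1.64 [−1.74, −1.54]) were the lowest, and H2b the least reduced (75.2 and 38.3 CPM, −0.97 [−1.17, −0.78]). Hist1h1e went from 244 to 62.5 CPM, Hist1h4d from 158 to 47.3 CPM and Hist1h1c from 80.8 to 37.2 CPM, whereas Hist1h1b was at 25.5 and 12.9 CPM. Only 11 members reached 10 CPM, and 7 of them were 2-fold or more lower, beside 1.36% of all genes, and none was 2-fold higher, beside 3.87%. Members were also read in other cells of the sort, where own transcripts and free RNA were not told apart. In cells with at least 10 neutrophil-gene UMIs and at most 1 UMI each of the S and M lists, members were at 384 CPM [309, 472] in 21 cells at day +7 and 166 CPM [103, 254] in 18 cells at day +14. The part of free RNA in the non-cycling values was not tested.

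The small CD4 gates gave ratios of like size. In S phase members were at 11192 and 4538 CPM (−1.30 [−1.36, −1.24]), with 31 of 42 members 2-fold or more lower beside 3.55% of all genes. In the mitotic gate they were at 14987 and 5721 CPM (−1.39 [−1.44, −1.34]), with 31 of 44 beside 3.24%. In non-cycling CD4 cells they were at 784 and 303 CPM (−1.37 [−1.55, −1.20]), with 7 of 9 beside 1.64%. H2a was the lowest class in both cycling CD4 gates (−1.66 and −1.70), and H1 the least reduced (−0.94 and −1.10). No member was 2-fold higher in these gates, beside 7.20%, 6.98% and 7.49% of all genes. Differences between subsets were not tested.

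The difference was present along the whole range of the S list. The bins held the gated CD8 cells of every phase, by their rank among all gated T cells. Members in the lowest bin of 10 ranks went from 956 to 413 CPM (log2 ratio −1.21), and in the highest bin from 13974 to 5811 CPM (−1.27). Across the 10 bins the ratio lay between −1.04 and −1.47. Held-out replication genes rose along the same ranks from 359 to 3236 CPM at day +7 and from 448 to 3417 CPM at day +14.

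Within the gates, single cells spread widely. In 1033 CD8 S phase cells at day +7 the thinned member count had a median of 42 UMIs, with the middle 80% of cells between 3 and 109. At day +14 the median of 1513 cells was 13 UMIs, with the middle 80% between 1 and 41. Cells at or above the day +7 median made up 9.52% of the gate at day +14. Cells with fewer than 10 member UMIs made up 31.5% of the S phase gate at day +7 and 44.1% at day +14. In the mitotic gate their share was 35.5% at day +7 and 35.7% at day +14. The remaining mitotic cells lay elsewhere, with the fullest bin from 90 to 99 UMIs at day +7 and from 30 to 39 UMIs at day +14. At 100 UMIs or more were 14.0% of S phase and 22.9% of mitotic cells at day +7 and none at day +14. The highest day +14 cells held 83 and 99 UMIs. The 0 of 1513 and 0 of 1276 cells allow shares of up to 0.198% and 0.235%, taken as 3 over the number of cells. These limits are approximate and cover counting error only. Cells share 1 library per day and are not replicates.

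**Figure D3:**
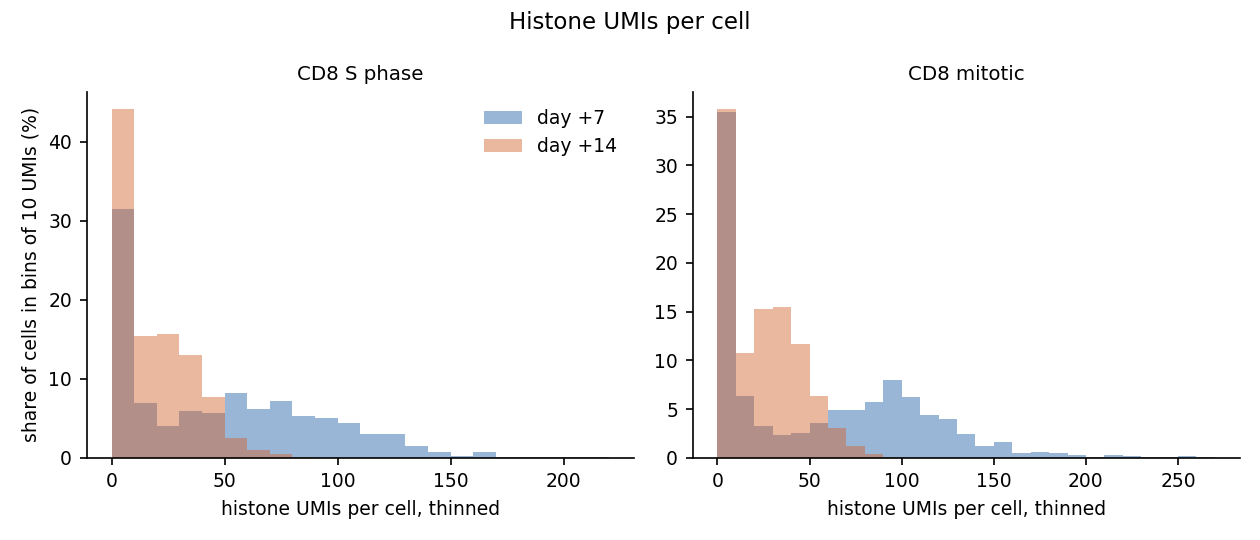
Share of CD8 cells (%) in bins of 10 histone UMIs per cell, after thinning to 4000 UMIs outside the members, in the S phase (left) and mitotic (right) gates at day +7 (blue) and day +14 (orange). Both gates hold a low group of cells under 10 UMIs and a broad upper group, whose fullest mitotic bin lies at 90 to 99 UMIs at day +7 and 30 to 39 UMIs at day +14.

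Genes around the histone pathway did not share the difference in CD8 S phase cells. Of 11 variant histone genes, 9 reached 10 CPM and none was 2-fold different (median log2 ratio −0.09, summed −0.06 [−0.07, −0.05]). H2afz, an H2a variant, was at 2702 and 2432 CPM, and the H3.3 genes H3f3b and H3f3a were at 1432 and 1533 CPM and at 1012 and 1003 CPM. H2afx, the one gene of this list with a stem-loop match, was the lowest of those at 10 CPM or more (198 and 147 CPM, −0.42 [−0.49, −0.35]).

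Of 16 genes of histone mRNA transcription and processing, 14 reached 10 CPM and none was 2-fold different (median 0.23). Slbp, which binds the stem-loop, was at 240 and 262 CPM. Casp8ap2, a factor of histone gene bodies, was at 88.7 and 103 CPM, and Eri1, an exonuclease that trims the histone 3′ end, at 87.6 and 78.8 CPM. All 16 histone chaperone genes reached 10 CPM, and none was 2-fold different (median 0.13). Npm1 was at 1372 and 1649 CPM, Set at 753 on both days, and Nasp, which carries H3 and H4, at 298 and 310 CPM. Of 15 general polyadenylation genes 14 reached 10 CPM, with a median of 0.24. Pabpc1, Nudt21 and Pabpn1 were at 493 and 565, 215 and 222, and 212 and 215 CPM. The held-out replication genes Dut, Mcm7 and Lig1 were at 887 and 904, 281 and 288, and 280 and 282 CPM.

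**Figure D4:**
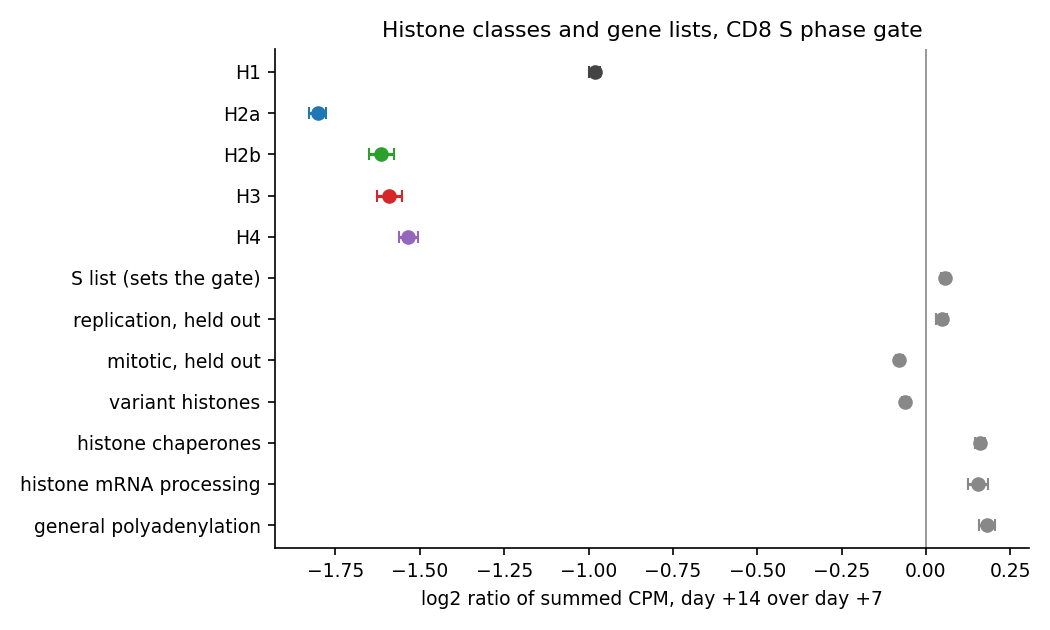
Log2 ratio of summed CPM, day +14 over day +7, in the CD8 S phase gate for the 5 histone classes and for 7 gene lists, with exact 95% intervals (counting error only). The classes lie between −1.80 and −0.98, and the lists between −0.08 and 0.18. The S list set the gate, which largely fixed its ratio near 0.

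Other RNA moved between the libraries as well. Gm42418, a locus whose reads overlap ribosomal RNA sequence, was at 15186 and 4814 CPM in CD8 S phase cells (−1.66 [−1.67, −1.65]) and had ratios between −1.92 and −1.59 in the 6 gates. Lars2 was at 301 and 134 CPM (−1.16 [−1.23, −1.10]). Both were picked for description once their values were known, and a link between them and the histone ratios was not tested. Neutrophil genes were at 23.6 and 37.9 CPM in the same gate, with erythroid genes at 14.7 and 13.7, macrophage genes at 17.5 and 17.1, B cell genes at 16.6 and 3.53, NK genes at 2.16 and 0.131 and platelet genes at 0.525 and 2.01 CPM. Their part in the histone result was not tested. In CD8 S phase cells of 8000 to 20000 UMIs, a range chosen after seeing the data, the total had a log2 ratio of −1.39.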

How the data were processed

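According to the labels and file headers, the deposited values are whole counts of UMIs per gene and barcode, without normalization, which the authors made with Cell Ranger 6.1.2 on mm10 for the barcodes it called as cells. The capture chemistry is not given in the sources used here. Barcodes with 500 to 7500 detected genes and at most 15% mitochondrial UMIs were kept. T cells needed 1 or more UMIs of CD3 or TCR constant genes and fewer than 10 of myeloid and erythroid genes, among 4000 UMIs left after thinning with a fixed seed, and 199 and 972 kept cells at days +7 and +14 were too shallow. UMIs of the cells in each gate were added up and scaled to a total of 1000000 (CPM). Counts of genes used 1 CPM added and a mean of 10 CPM or more, and single ratios used none. There is 1 library per day, so cells were not treated as replicates and no p-value is given.

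Named genes were the 4 members per class with the most UMIs in CD8 S phase cells and the highest and lowest ratio, the 3 genes of each list with the most UMIs and any past 2-fold, and the 3 lowest other genes at 50 CPM or more. The members and lists were chosen with earlier results of these data known. Python 3.11.15, numpy 2.4.6, scipy 1.17.1, pandas 2.3.3 and scanpy 1.11.5 were used. Counts were simulated near the depth of the CD8 S phase gate, with gene shares from all kept cells and Poisson error only. The planted changes all lay past the 2-fold limit, and 200 of 200 changed genes among 6860 were found. The interval held the truth for 95.4% of genes. These settings made both outcomes likely beforehand, so they check the calculation only. Spread between libraries was not simulated. Alternatives were other scalings, a stricter gate, no thinning, removal of the highest Scrublet scores, means per cell, other filters on low values and a depth range.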

Additional observations from a re-analysis of the deposited data

Results flagged for a closer look

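Cells outside the T cell gate, apart from those set beside the non-cycling cells, entered no comparison of the report. As groups they held histone UMIs. Cells with at least 10 neutrophil-gene UMIs after thinning, 47 at day +7 and 57 at day +14, held members at 4697 CPM and 1509 CPM, a log2 ratio of −1.64 [−1.73, −1.55]. Their S list was at 2040 and 1828 CPM, their variant histones had a ratio of 0.02, and their median depth was 15772 and 9565 UMIs. Those with at most 1 UMI of each of the S and M lists had 384 CPM and 166 CPM, from 91 and 21 UMIs. Cells with at least 10 erythroid-gene UMIs, 89 at day +7 and 14 at day +14, held members at 3883 CPM and 3136 CPM (−0.31 [−0.44, −0.18]), with the S list at 3094 and 4434 CPM and median depths of 36493 and 8648 UMIs. The differences between these cells and the T cell gates were not tested.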

How the results depend on the processing

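All totals and classes stayed below 0 under every alternative run, 49 of the alternative values moved by no more than counting error or, for the count of members, by under 1.5 times, and 40 moved further. Scaled by the median ratio of genes, the CD8 S phase, mitotic and non-cycling totals were −1.51, −1.37 and −1.65, and H1, H2a, H2b, H3 and H4 in CD8 S phase −1.12, −1.95, −1.76, −1.73 and −1.68. As means of CPM per cell, the CD8 S phase and mitotic totals were −1.45 and −1.23 and the classes −1.07, −1.88, −1.72, −1.69 and −1.62. With gates at rank 90, the totals were −1.31 and −1.19, with −0.86 in CD4 S phase (21 and 35 cells), and H1, H2a and H4 −0.92, −1.76 and −1.46. Without thinning, the CD8 and CD4 mitotic totals were −1.23 and −1.24, and scaling by UMIs outside the members gave −1.22 for CD8. Without the highest Scrublet scores, the CD8 S phase total was −1.38, CD4 mitotic −1.53 and H4 −1.56. In cells of 8000 to 20000 UMIs, added after seeing the data, the CD8 S phase and mitotic totals were −1.39 and −1.32, the CD4 S phase, mitotic and non-cycling totals −1.503, −1.80 and −1.13, and H2a, H2b, H3 and H4 −1.83, −1.70, −1.63 and −1.60. Without the member with the most UMIs, H1, H2b, H3 and H4 were −1.37, −1.48, −1.45 and −1.31. This setting takes the leading gene from each class. The causes of these shifts were not tested. The count of members 2-fold lower lay between 30 (5 CPM added) and 43 (no filter on low values). No paired analysis was possible because there is 1 library per day, and no library could be left out.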

Other observations

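Gated T cells that fell in no subset or phase gate, 2635 at day +7 and 2393 at day +14, held members at 4550 CPM [4527, 4574] and 2265 CPM [2247, 2283], a log2 ratio of −1.01 [−1.02, −0.99].

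The genes other than the members at or under their median ratio in CD8 S phase cells included Fcer1g (152 and 13.6 CPM), AA467197 (102 and 20.6 CPM), Ggt1 (91.7 and 19.5 CPM), Capg (247 and 74.6 CPM), Gzmb (1750 and 545 CPM) and Gm10076 (357 and 129 CPM), all named after seeing the values.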
